A study of Homo sapiens with 6 samples.

Results

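The genes described here are 42 regulators and executioners of apoptosis: the BCL2 family, caspases, death receptors with their ligands and adaptors, inhibitor of apoptosis proteins and factors released from mitochondria. They were taken by symbol among the protein-coding genes, by a rule that uses no measured value, although the list was drawn up with earlier results of these data known. The 42 symbols matched 43 of the 58735 rows of the count table, because DIABLO has 2 gene identifiers. By their known roles, 12 symbols were taken as pro-survival, 26 as pro-death, and 4 (CASP1, CASP4, TNFRSF1A and RIPK1) as belonging to neither side, since their products act in inflammation or can signal either way.

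Apoptosis starts along either of a pair of routes. In the mitochondrial route, BH3-only proteins sense stress and bind pro-survival BCL2 proteins or directly engage the pore formers BAX and BAK1, so that cytochrome c leaves the mitochondria and the APAF1 apoptosome activates caspase-9. In the receptor route, FAS and the TRAIL receptors recruit FADD and caspase-8, CFLAR blocks that step, and inhibitor of apoptosis proteins restrain the caspases downstream of both.

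MG63, a human osteosarcoma cell line, was transfected either with siRNA against FUBP1, a DNA-binding regulator of transcription (siFUBP1, 3 samples), or with a negative control (siMock, 3 samples). Polyadenylated RNA was sequenced 48 h after transfection to find genes that depend on FUBP1. No drug treatment is given for either group, and the sources used here name 3 siRNAs against FUBP1 without saying which was sequenced. Repeated experiments are stated for the study in general, but no source used here says that the 3 sequenced samples of a group were separate cultures, so p-values measure only the spread between these samples, which may be technical.

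Total counts ran from 16309900 to 17484313 per sample, and 16116 genes had enough counts to be tested. FUBP1 itself fell from 3872 to 4331 counts with siMock to 749 to 926 with siFUBP1, and its log2 fold change was -2.44 ± 0.089 (SE, n = 3 per group; adjusted p = 1.90e-17 after Benjamini-Hochberg correction in edgeR's quasi-likelihood test). The labelled cell type was checked against 6 mesenchymal or osteoblast-lineage markers. COL1A1, VIM and S100A4 each had at least 769 counts in every sample, but COL1A2 had 0 counts in all 6 samples, SPARC had at most 5 and RUNX2 had 6 to 8 in siMock and 39 to 97 in siFUBP1. Defining genes of bone-forming cells were thus at or near 0, and the cells are called MG63 here by their label. Of 9 leukocyte, endothelial and epithelial markers, none exceeded 83 counts, and PTPRC, CD3E and KRT19 were at or below 3 counts.

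Of the 43 rows, 38 could be tested, and 29 of them (76.3%) differed between siFUBP1 and siMock at an adjusted p below 0.05, against 60.2% of all genes tested. In siFUBP1, 14 members were higher and 15 were lower, and for all genes the shares were 30.1% higher and 30.1% lower. The 2 groups of samples did not overlap for 28 members, and they did not overlap for 63.9% of all genes. Changes beyond a log2 fold change of 1 were found for 8 members (21.1%, against 17.3% of all genes): PMAIP1 and BBC3 were higher (all genes 8.16%), and BMF, TNFRSF10C, RIPK1, FADD, BCL2L11 and BOK were lower (all genes 9.13%). Samples of bulk RNA cannot tell fewer cells that express a gene from less of its RNA per cell.

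Neither side moved as a block. Of the 10 pro-survival genes tested, 5 rose and 3 fell, with a median log2 fold change of 0.20. Of the 24 pro-death genes tested, 9 rose and 10 fell, with a median of 0.09, while the median of all genes was 0.002. Among the 4 genes of neither side, CASP4 and RIPK1 fell and CASP1 and TNFRSF1A did not pass the test. Pro-survival genes ran from -4.28 to 0.81 and pro-death genes from -4.54 to 2.04. The -4.28 belongs to TNFRSF10C, which had 0 to 26 counts, and the next lowest pro-survival gene was TNFRSF10D at -0.61. The pro-survival genes that fell were these TRAIL decoy receptors and CFLAR. The pro-survival BCL2 genes and the inhibitor of apoptosis genes tested all had positive differences.

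**Figure D1:**
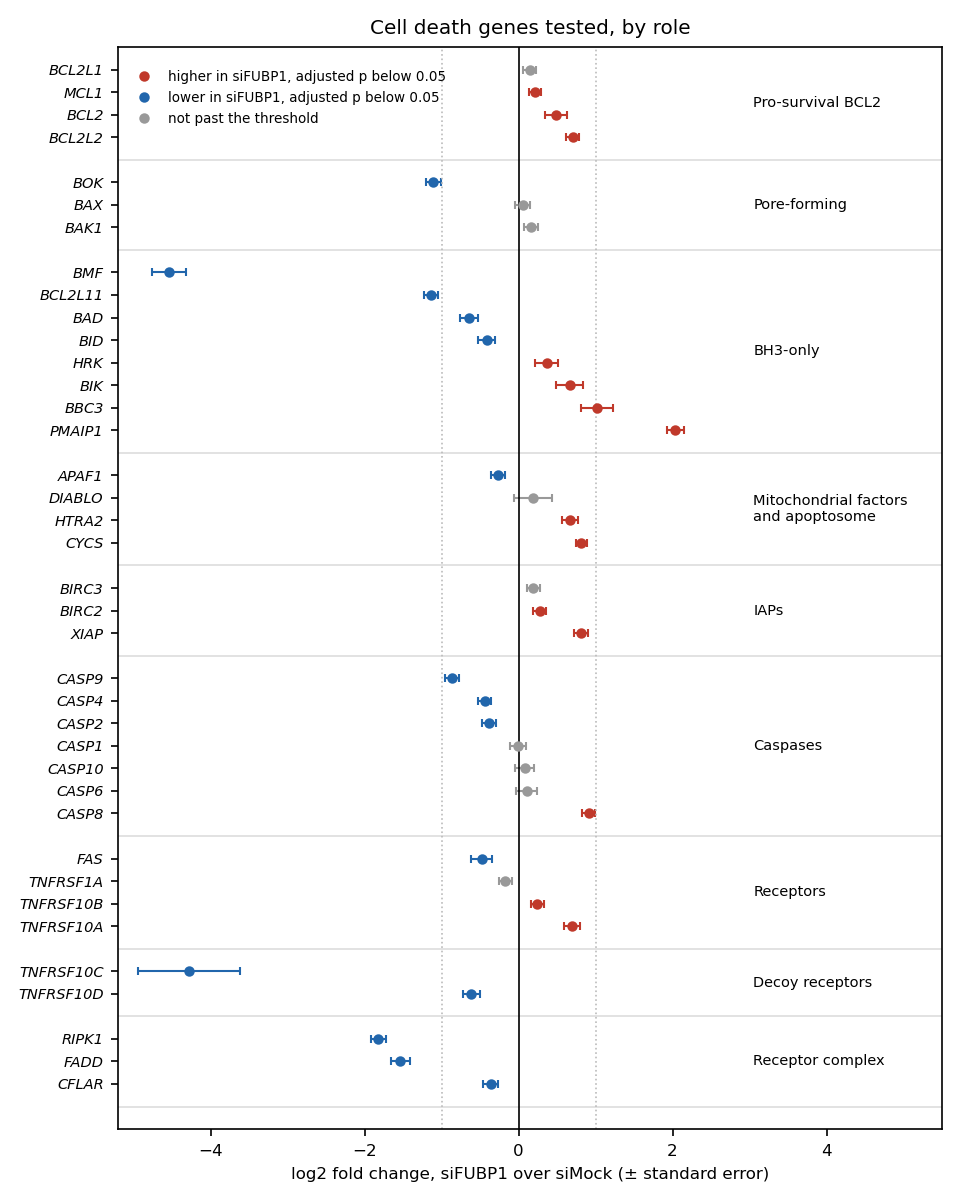
Log2 fold change of siFUBP1 over siMock for the 38 rows tested, grouped by role, with the standard error of each estimate as a bar; red and blue points passed the test upwards and downwards, and dotted lines mark log2 fold changes of -1 and 1. The BH3-only genes split into 4 that were higher and 4 that were lower, and RIPK1, FADD and CFLAR all lay to the left of 0.

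To compare levels between genes, counts were divided by the normalized library size, which gives CPM, and then by the length of the merged exons in kilobases. MCL1, a short-lived pro-survival protein that cells need continuously, had the highest level of all members in both groups. It stood at 101 ± 1.48 CPM per kb in siMock and 117 ± 9.75 in siFUBP1 (SD, n = 3). TNFRSF10B and CYCS, which encodes cytochrome c, took the next places in both groups. PMAIP1 stood at 8.34 ± 1.09 CPM per kb in siMock and, at 34.3 ± 5.22, took the place after those 3 in siFUBP1, while BMF and TNFRSF10C were the lowest of the 38 in siFUBP1.

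**Figure D2:**
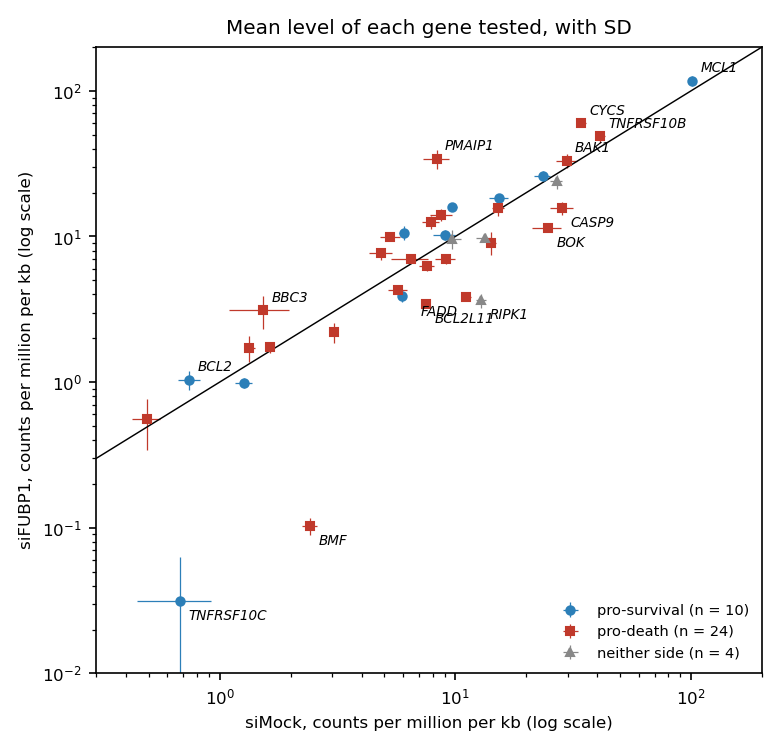
Mean level of each of the 38 rows tested in siMock (horizontal) against siFUBP1 (vertical), both in CPM per kb of exon on log axes, with SD bars over 3 samples per group; the line marks equal levels and the lower bar of TNFRSF10C runs off the axis. MCL1 stayed at the top of both scales, PMAIP1 lay above the line and BMF and TNFRSF10C far below it.

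The pro-survival BCL2 proteins hold BAX, BAK1 and the BH3-only proteins in check. Of the 6 genes of this role, 4 were expressed well enough to be tested, and 3 of the 4 were higher in siFUBP1, as were 30.1% of all genes tested. BCL2L2, which encodes BCL-w, had 642, 724 and 628 counts in siMock and 1096, 1222 and 1115 in siFUBP1. All siFUBP1 samples were above all siMock samples, and its log2 fold change was 0.71 ± 0.085 (adjusted p = 7.31e-08). BCL2, the founder of the family, was scarce, with 128, 149 and 151 counts in siMock against 181, 247 and 206. It rose by 0.48 ± 0.144 on the log2 scale (adjusted p = 0.00512, edgeR) without overlap between the groups. The call for BCL2 was lost when FPKM values were tested with limma (adjusted p = 0.0507 and 0.0628).

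MCL1 rose least among the genes of this role that passed. It had 7336, 7420 and 6911 counts in siMock and 8043, 9702 and 8755 in siFUBP1, a log2 fold change of 0.21 ± 0.080 (adjusted p = 0.0251, edgeR). The siFUBP1 samples were all above the siMock samples by a small margin. This call did not hold without siFUBP1 replicate 2 (0.15, adjusted p = 0.131, edgeR), without siMock replicate 2 (0.20, adjusted p = 0.0827, edgeR) or without siMock replicate 3 (0.20, adjusted p = 0.0532, edgeR). BCL2L1, which encodes BCL-xL, had 1378, 1299 and 1129 counts in siMock and 1427, 1630 and 1383 in siFUBP1. The siMock sample with 1378 counts overlapped the siFUBP1 range after normalization, and the difference of 0.14 did not pass (adjusted p = 0.148, edgeR; 95% interval -0.03 to 0.32), but passed at 0.24 both with total counts only and after correcting for GC content and length. Its exons share 1424 of 3314 bases with ABALON on the opposite strand, which had 27 to 55 counts. BCL2A1 had 0 counts in all 6 samples, which allows a level of up to 0.192 CPM in the sample with the smallest normalized library, and BCL2L10 had 0 to 4.

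BAX, BAK1 and BOK form the pores in the outer mitochondrial membrane, and only BOK passed the test. BAX had 670, 677 and 573 counts in siMock and 741, 748 and 612 in siFUBP1. Its samples overlapped, and the log2 difference was 0.05 ± 0.097 (adjusted p = 0.656, edgeR; 95% interval -0.15 to 0.25). BAK1 overlapped too, with 1016, 1249 and 957 counts against 1199, 1424 and 1168 and a difference of 0.16 ± 0.091 (adjusted p = 0.139, edgeR; 95% interval -0.03 to 0.35). BAK1 passed with the same correction (0.28), with total counts only (0.26) and without siMock replicate 2 (0.25).

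BOK, a pore former that resembles BAX and BAK1 but is found mainly on the endoplasmic reticulum, went the other way. The gene lies on chromosome 2 from 241551424 to 241574138, plus strand (GRCh38). It had 1246, 1134 and 900 counts in siMock and 503, 575 and 529 in siFUBP1. Every siFUBP1 sample was below every siMock sample, and the level was 46.5% of that in siMock (log2 fold change -1.11 ± 0.099, adjusted p = 3.62e-10, edgeR). With the GC and length correction the change was -0.78. The summed level of BAX and BAK1 was 44.8 ± 3.44 CPM per kb in siMock and 48.9 ± 5.00 in siFUBP1.

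The BH3-only genes encode the proteins that start the mitochondrial route. All 8 were tested and all 8 passed, against 60.2% of all genes tested. Of these, 4 went upwards (PMAIP1, BBC3, BIK and HRK) and 4 downwards (BMF, BCL2L11, BAD and BID), with a median log2 fold change of -0.03. All genes were split evenly too, with 30.1% higher and 30.1% lower. PMAIP1 encodes NOXA, which binds MCL1, and lies on chromosome 18 from 59899948 to 59904306, plus strand. It had 288, 363 and 264 counts in siMock and 1239, 1554 and 1169 in siFUBP1. The lowest siFUBP1 sample was above the highest siMock sample, and PMAIP1 rose 4.11-fold (log2 fold change 2.04 ± 0.112, adjusted p = 1.04e-13, edgeR). BBC3 encodes PUMA, which binds all pro-survival members, and lies on chromosome 19 from 47220822 to 47232766, minus strand. It had 78, 107 and 55 counts in siMock and 165, 217 and 129 in siFUBP1.

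BBC3 rose by 1.02 ± 0.205 on the log2 scale (adjusted p = 1.96e-04, edgeR), and its groups did not overlap although its samples were spread widely within each group. Its value fell below 1 without siMock replicate 1 (0.99), without siMock replicate 3 (0.83), without siFUBP1 replicate 2 (0.82) and under limma with a pseudocount of 1 (0.70) or 0.1 (0.99) on the FPKM values, and the call at an adjusted p below 0.05 held in each of these. BIK, which encodes a BH3-only protein of the endoplasmic reticulum, had 68 to 81 counts with siMock and 114 to 140 with siFUBP1 and rose by 0.66 ± 0.172. HRK, best known from neurons, had 137 to 165 counts against 169 to 248. It rose by 0.36 ± 0.148 (adjusted p = 0.0357, edgeR), the groups overlapped after normalization, and the call was lost with DESeq2 (adjusted p = 0.0996), with limma (0.113 and 0.117) and without siMock replicate 1 or 3 or siFUBP1 replicate 1 or 2 (0.0566 to 0.271).

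The genes that fell include the most strongly reduced member. BMF encodes a BH3-only protein held at the cytoskeleton and released by loss of attachment, and it lies on chromosome 15 from 40087890 to 40108892, minus strand. It had 209, 243 and 195 counts in siMock and 11, 9 and 9 in siFUBP1. The siFUBP1 samples held 4.26% of the siMock level, with a log2 fold change of -4.54 ± 0.219 (adjusted p = 2.56e-15, edgeR). On the log2(FPKM + 1) scale, which compresses low genes, the same difference was -1.62. BCL2L11 encodes BIM, which binds all pro-survival members and activates BAX, and lies on chromosome 2 from 111119378 to 111168447, plus strand. It had 818, 813 and 808 counts in siMock and 407, 381 and 388 in siFUBP1.

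The replicates of BCL2L11 were closely spaced in both groups, and it fell to 45.6% of its siMock level (log2 fold change -1.13 ± 0.091, adjusted p = 5.55e-11, edgeR) or by 0.94 on the log2(FPKM + 1) scale. Its exons share 727 of 6658 bases with MIR4435-2HG on the opposite strand, which rose from 495 to 558 counts to 759 to 869. Because the use of strand in counting is not stated, reads from the shared bases cannot be assigned to either gene. BAD, which growth factor signalling keeps inactive, had 413, 414 and 360 counts in siMock and 223, 322 and 256 in siFUBP1 and fell by 0.65 ± 0.119 (adjusted p = 3.90e-05, edgeR). It shares 404 of its 1708 exonic bases with GPR137 on the opposite strand, which also fell, by 0.39. BID, which carries the receptor signal to mitochondria after cleavage by caspase-8, had 355 to 466 counts against 303 to 342 and fell by 0.42 ± 0.106 (adjusted p = 0.00145, edgeR).

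**Figure D3:**
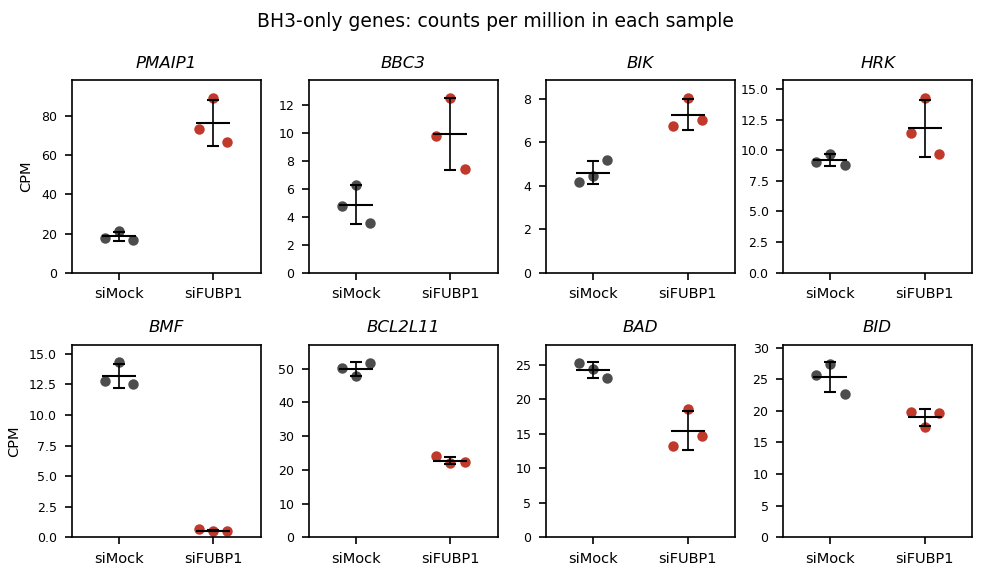
CPM of the 8 BH3-only genes in each sample (points, 3 per group), with the mean and SD in black; each vertical axis starts at 0 and has its own range. The siFUBP1 points of PMAIP1, BBC3 and BIK lie above all siMock points, those of BMF, BCL2L11, BAD and BID lie below all of them, and those of HRK overlap.

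These opposite changes altered the make-up of the BH3-only transcripts more than their sum. The summed level was 45.8 ± 1.92 CPM per kb in siMock and 63.6 ± 8.07 in siFUBP1. PMAIP1 made up 17.3%, 19.96% and 17.2% of that sum with siMock and 54.2%, 55.1% and 52.1% with siFUBP1. Without PMAIP1 the sum of the other 7 genes was 37.5 ± 0.923 CPM per kb in siMock and 29.3 ± 2.91 in siFUBP1. The total thus rose only with PMAIP1 included, although BBC3, BIK and HRK rose as well. BAD went from 31.0% to 14.2% of the sum, BCL2L11 from 16.4% to 5.44% and BMF from 5.28% to 0.164%, as group means. The sum of the pro-survival BCL2 genes was 135 ± 2.70 CPM per kb in siMock and 160 ± 12.7 in siFUBP1.

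The direction in which the 2 sums compared turned on PMAIP1. With all genes, the pro-survival level divided by the BH3-only level was 2.80 to 3.04 with siMock and 2.40 to 2.69 with siFUBP1, lower in all 3 samples. Without PMAIP1 alone the same ratio was 3.49 to 3.67 with siMock and 5.34 to 5.62 with siFUBP1, higher in all 3. Without MCL1 alone it was 0.710 to 0.780 and 0.640 to 0.698, still lower in all 3. These ratios describe transcripts, were formed after the values were known and carry no test.

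**Figure D4:**
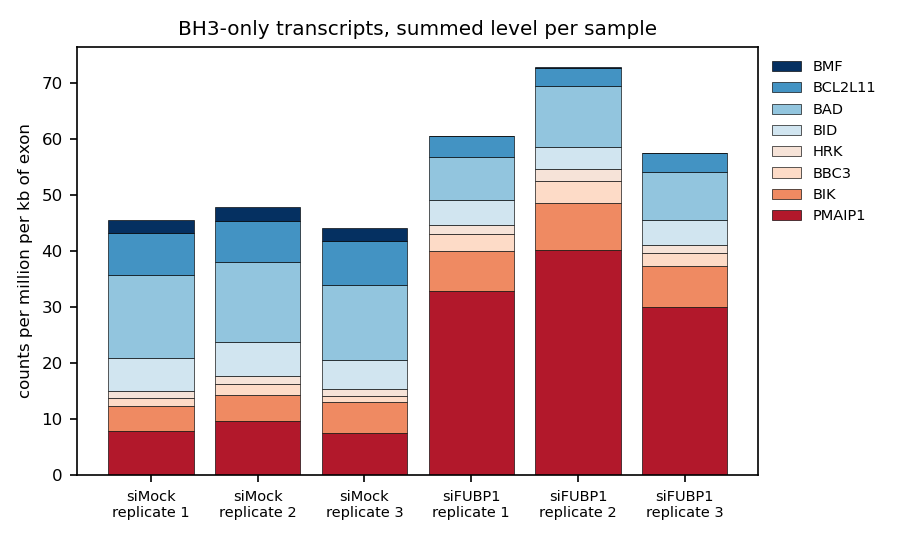
Level of the 8 BH3-only genes in each of the 6 samples, in CPM per kb of exon, stacked by gene from 0. PMAIP1 fills 17.2% to 19.96% of the bar in siMock and 52.1% to 55.1% in siFUBP1, and the segment of BMF is hardly visible in siFUBP1.

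The promoters of PMAIP1 and BMF, the BH3-only genes with the largest rise and the largest fall, are shown because these members moved furthest apart. Each runs from 250 bases before to 50 bases after a RefSeq gene start on GRCh38.p14, read along the gene, and the capitals mark TGACG, the core of the site bound by CREB and ATF proteins, on either strand. The PMAIP1 window is chr18:59899746-59900045 on the plus strand and the BMF window is chr15:40108830-40109129 on the minus strand.
PMAIP1: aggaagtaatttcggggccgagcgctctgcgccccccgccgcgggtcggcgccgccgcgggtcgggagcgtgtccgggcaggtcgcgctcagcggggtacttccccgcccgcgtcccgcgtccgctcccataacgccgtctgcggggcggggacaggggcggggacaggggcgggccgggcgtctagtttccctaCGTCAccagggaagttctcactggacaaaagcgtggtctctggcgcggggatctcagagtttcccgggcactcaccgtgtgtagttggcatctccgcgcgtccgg
BMF: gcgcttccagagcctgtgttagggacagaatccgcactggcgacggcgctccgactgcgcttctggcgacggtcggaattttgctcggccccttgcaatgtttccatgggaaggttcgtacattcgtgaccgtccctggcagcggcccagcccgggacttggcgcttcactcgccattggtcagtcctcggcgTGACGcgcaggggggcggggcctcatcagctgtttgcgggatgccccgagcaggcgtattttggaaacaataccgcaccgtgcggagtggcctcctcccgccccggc
Both windows hold the core once, beginning 55 bases before the start in PMAIP1 and 57 bases before it in BMF. It was found in 24.6% of all 35116 promoter windows and in 29.8% of the 57 windows that matched 32 of the 42 symbols. The full site TGACGTCA was found in 1.85% of all windows and, among the matched members, in BIRC2 alone. The composite site TGATGNAA, which ATF4 and C/EBP proteins bind together, was found in 3.62% of all windows and in those of HRK and BCL2A1. A match describes these letters only and was not tested for binding.

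Among the factors that act once mitochondria are breached, CYCS and HTRA2 rose and APAF1 fell. CYCS had 2518, 2475 and 2472 counts in siMock and 4639, 4536 and 4712 in siFUBP1. Its replicates lay close together, and it rose by 0.81 ± 0.075 (adjusted p = 6.49e-10, edgeR), the smallest standard error of any member. HTRA2, a mitochondrial protease that antagonizes inhibitor of apoptosis proteins, had 341 to 419 counts against 580 to 683 and rose by 0.67 ± 0.101. It shares 483 of 3001 exonic bases with AUP1 on the opposite strand, which did not pass (adjusted p = 0.862, edgeR). It shares 625 more with LOXL3 on that strand, which had 59 to 85 counts and did not pass (adjusted p = 0.307, edgeR). APAF1, the scaffold of the apoptosome, fell slightly, from 902 to 1017 counts to 766 to 924 (-0.27 ± 0.089, adjusted p = 0.0118, edgeR), and the call was lost with total counts only (adjusted p = 0.108, edgeR) and without siFUBP1 replicate 1 (adjusted p = 0.108, edgeR).

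DIABLO, which encodes SMAC, a further antagonist of those proteins, had 51 to 60 counts with siMock and 44 to 93 with siFUBP1 under its main identifier and did not pass (0.18 ± 0.246, adjusted p = 0.538, edgeR). Its other identifier shares 2006 exonic bases with it on the same strand and had 0 to 4 counts, so that reads could be lost between the 2 rows and the level of DIABLO is uncertain.

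The 3 inhibitor of apoptosis genes all had positive differences, and 2 of them passed, as did 60.2% of all genes tested. XIAP, the direct inhibitor of caspases, had 869, 976 and 830 counts in siMock and 1440, 1817 and 1703 in siFUBP1. All siFUBP1 samples were higher, and XIAP rose by 0.81 ± 0.086 (adjusted p = 8.63e-09, edgeR), the largest rise on the pro-survival side. BIRC2 and BIRC3 encode cIAP1 and cIAP2, ubiquitin ligases that act on RIPK1 at TNF receptors. BIRC2 had 1073 to 1182 counts against 1410 to 1504 and rose by 0.28 ± 0.083 (adjusted p = 0.00550, edgeR), which was lost without siMock replicate 2 (adjusted p = 0.0624, edgeR). BIRC3 did not pass (0.19 ± 0.089, adjusted p = 0.0652, edgeR), although 5 of the 16 alternatives placed it past the threshold.

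CASP8 and CASP9, initiator caspases of different routes, moved in opposite directions. CASP8, an initiator of the receptor route, had 569, 646 and 659 counts in siMock and 1180, 1260 and 1283 in siFUBP1. The groups were well separated, and CASP8 rose 1.88-fold (log2 fold change 0.91 ± 0.088, adjusted p = 1.60e-09, edgeR). CASP9, the initiator activated on the apoptosome, had 2740, 2306 and 2253 counts in siMock and 1478, 1260 and 1510 in siFUBP1. It fell to 55.1% of its siMock level (-0.86 ± 0.089, adjusted p = 5.83e-09, edgeR), again without overlap. CASP2, an initiator activated by the PIDDosome, fell by 0.38 ± 0.088, from 1135 to 1257 counts to 897 to 1048.

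CASP10, also an initiator and a relative of caspase-8, and CASP6, an executioner, did not pass. Their log2 differences were 0.08 ± 0.125 (95% interval -0.18 to 0.33) and 0.11 ± 0.136 (95% interval -0.17 to 0.38). The inflammatory caspases differed from each other. CASP4, which senses bacterial lipopolysaccharide in the cytosol, had 1455 to 1638 counts with siMock and 1157 to 1285 with siFUBP1 and fell by 0.44 ± 0.083 (adjusted p = 5.69e-05, edgeR). CASP1, the inflammasome caspase, had 544 to 612 counts against 515 to 679 and did not pass (adjusted p = 0.975, edgeR; 95% interval -0.22 to 0.21). With the GC and length correction CASP1 passed at -0.22 (adjusted p = 0.0361, edgeR).

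On the receptor side, the TRAIL death receptors rose and their decoys fell. TNFRSF10A, which encodes DR4, had 373, 480 and 408 counts in siMock and 719, 787 and 647 in siFUBP1. The groups did not overlap, and it rose 1.62-fold (log2 fold change 0.69 ± 0.102, adjusted p = 1.67e-06, edgeR). Its exons share 266 of 2951 bases with AC100861.1 on the opposite strand, which also rose, from 47 to 97 counts to 172 to 212. They share 224 with TNFRSF10A-AS1 on that strand, which did not pass (adjusted p = 0.679, edgeR). Reads from these bases cannot be assigned to either gene. TNFRSF10B, which encodes DR5 and was the most abundant receptor, had 3355, 3811 and 3216 counts against 4118, 4816 and 4041 and rose by 0.24 ± 0.081 (adjusted p = 0.0112, edgeR). The call for TNFRSF10B was lost without siFUBP1 replicate 2 (0.17, adjusted p = 0.0880, edgeR).

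TNFRSF10C and TNFRSF10D encode decoys that bind TRAIL without passing on a full death signal. TNFRSF10D had 329, 366 and 334 counts in siMock and 214, 258 and 239 in siFUBP1. All siFUBP1 samples were lower, and it fell by 0.61 ± 0.112 (adjusted p = 3.68e-05, edgeR). TNFRSF10C was rare in both groups, with 13, 23 and 26 counts in siMock and 2, 1 and 0 in siFUBP1 (log2 fold change -4.28 ± 0.664, adjusted p = 3.94e-06, edgeR). Over each group this is 62 against 3 counts, or 4.58% of the siMock level with an exact 95% interval of 0.920% to 14.0% that covers counting error only. Summed per kb, the level of the death receptors was 7.03 to 7.79 times that of the decoys with siMock and 14.8 to 16.9 times with siFUBP1. The ligand gene TNFSF10, which encodes TRAIL, had 0 to 1 counts in every sample, and FASLG had 0 in all 6.

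FAS, the receptor of FAS ligand, had 207, 218 and 213 counts in siMock and 150, 143 and 191 in siFUBP1. It fell by 0.48 ± 0.137 (adjusted p = 0.00386, edgeR) with no overlap, so that the death receptors did not share a direction. TNFRSF1A, the main TNF receptor, had 1565 to 1906 counts against 1490 to 1834 and did not pass (-0.17 ± 0.084, adjusted p = 0.0823, edgeR; 95% interval -0.34 to 0.002), but passed without siMock replicate 3 (-0.23), without siFUBP1 replicate 2 (-0.24) and with a replicate block (-0.17).

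**Figure D5:**
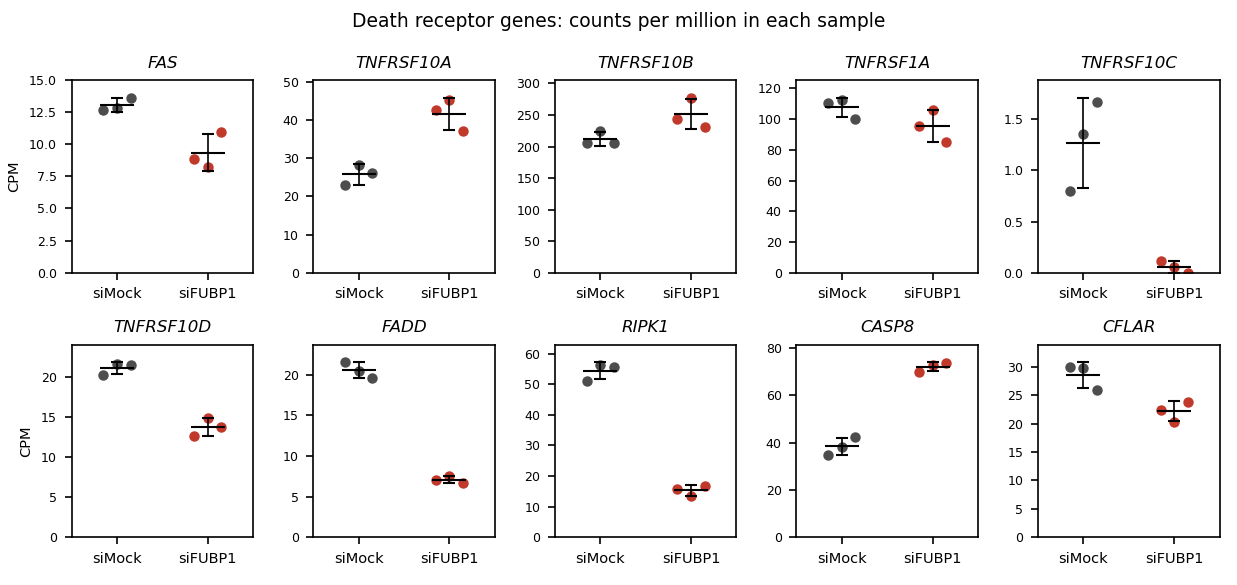
CPM of 10 genes of the receptor route in each sample (points, 3 per group), with the mean and SD in black; each vertical axis starts at 0 and has its own range. TNFRSF10A, TNFRSF10B and CASP8 are higher in all 3 siFUBP1 samples, FAS, TNFRSF10C, TNFRSF10D, FADD, RIPK1 and CFLAR are lower in all 3, and the groups of TNFRSF1A overlap.

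RIPK1, FADD and CFLAR, which act at these receptors, fell. RIPK1 encodes the kinase that stands between survival signalling and cell death at the TNF receptor, and lies on chromosome 6 from 3063991 to 3115187, plus strand. It had 835, 956 and 869 counts in siMock and 266, 234 and 295 in siFUBP1. The highest siFUBP1 sample was far below the lowest siMock sample, and RIPK1 fell to 28.3% of its siMock level (log2 fold change -1.82 ± 0.10, adjusted p = 3.29e-14, edgeR). FADD encodes the adaptor that joins receptors to caspase-8, and lies on chromosome 11 from 70203163 to 70207390, plus strand. It had 351, 348 and 306 counts in siMock and 120, 130 and 116 in siFUBP1.

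FADD fell to 34.5% of its siMock level (-1.53 ± 0.125, adjusted p = 6.94e-11, edgeR), with a narrow spread in both groups. Its exons share 1011 of 1841 bases with an antisense gene, AP000879.1, that had 0 counts in all 6 samples. CFLAR, whose product FLIP competes with caspase-8 for FADD, had 488, 505 and 405 counts in siMock and 379, 352 and 415 in siFUBP1. It fell by 0.36 ± 0.102 (adjusted p = 0.00321, edgeR), which was lost with limma on FPKM values (adjusted p = 0.0854 and 0.0993).

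An siRNA can also lower transcripts that match bases 2 to 8 of its guide strand, the seed, so the 3′ UTR of 1 transcript of each member (GENCODE 29, GRCh38) was searched for the complement of each seed. The 3 guide strands listed for FUBP1 are shown with the seed in capitals, because it is not stated which of them was sequenced.
RNAi#1: uAAACUGAaugcgaacacc
RNAi#2: uAAGAGGUuugucagcacc
RNAi#3: uUUCUUCUaugaguugccg
A seed match was present in 7, 5 and 12 of 37 members with a 3′ UTR for RNAi#1, RNAi#2 and RNAi#3 (18.9%, 13.5% and 32.4%), against 21.0%, 12.8% and 20.2% of the 12418 tested genes with a 3′ UTR.

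RIPK1 and BMF, 2 of the members that fell most, each carry matches to both RNAi#2 and RNAi#3. So do CFLAR, which fell by 0.36, and XIAP, which rose by 0.81, and both of these match RNAi#1 as well. The longer match of 8 bases, with an A opposite the first guide base, to RNAi#2 was found in 2.43% of all these genes and among the members in RIPK1 alone, at chr6:3113648-3113675 on the plus strand. To RNAi#3 this longer match was found in 11.9% of all these genes. Among the members it was found in BMF, RIPK1 and CFLAR, which fell, and in BCL2L2 and TNFRSF10A, which rose. The matches to RNAi#2 in BMF are at chr15:40090749-40090776 and chr15:40089959-40089986 on the minus strand, and the match of RIPK1 to RNAi#3 is at chr6:3113774-3113801. In these sites the capitals mark the bases complementary to the seed.
RIPK1, RNAi#2: taagcaggaagACCTCTTaatggcatag
RIPK1, RNAi#3: ttgttgaagcaAGAAGAAaaactcagag
BMF, RNAi#2: ggaaacaacatACCTCTTcccccttatc
BMF, RNAi#2: ttctggatattACCTCTTcttggtcaga
Matches did not go with 1 direction. Of the 5 members with an RNAi#2 match, BMF, RIPK1 and CFLAR fell, XIAP rose and BCL2L1 did not pass, and their median log2 fold change was -0.36 against 0.09 for the members without one. For RNAi#3 the medians were 0.22 with and 0.05 without a match, and for RNAi#1 they were 0.21 and 0.07. FADD, BCL2L11, BOK and TNFRSF10C, which also fell beyond a log2 fold change of 1, carry no match to any of the 3 seeds in the 3′ UTR searched. The part of such matches in these changes was not tested.

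Members known to respond to the same regulators did not move together throughout. Of 7 members known as p53 targets, PMAIP1, BBC3 and TNFRSF10B rose, FAS, APAF1 and BID fell and BAX did not pass, with a median log2 fold change of 0.05. Of 4 members known to respond to ATF4 or CHOP, PMAIP1, BBC3 and TNFRSF10B rose and BCL2L11 fell, with a median of 0.63. Of 4 interferon-responsive members 3 were tested, of which CASP4 and FAS fell and CASP1 did not pass. Of 5 members known as NF-kB targets 4 were tested, of which CFLAR and FAS fell and BCL2L1 and BIRC3 did not pass. Of all genes tested, 60.2% passed, 30.1% higher and 30.1% lower, and these short lists were not tested against those shares. The lists were set with earlier results of these data known. Other members may respond to the same regulators, so these counts and medians depend on the members listed.

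A wider list of 50 cell death genes that are not members had 43 tested, of which 8 were higher and 18 were lower (60.5% in all, against 60.2% of all genes), with a median log2 fold change of -0.17. Past a log2 fold change of 1 were PERP, a p53-induced membrane protein (2224 to 2522 counts in siMock, 5464 to 6149 in siFUBP1, 1.22 ± 0.081), and BCL2L13, a mitochondrial BCL2 relative (454 to 461 against 928 to 993, 1.01 ± 0.089). PYCARD, the inflammasome adaptor ASC, was the only such gene that fell (43 to 59 against 14 to 29, -1.22 ± 0.292).

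The libraries of a group were not alike. Among the siFUBP1 samples, replicate 2 had the highest CPM for 20 of the 38 members, against 9 each for replicates 1 and 3, and replicate 3 had the lowest for 18. In siMock, replicates 1, 2 and 3 were highest for 9, 15 and 14 members. The same was not counted over all genes. Replicate 2 of siFUBP1 also had the lowest share of counts from mitochondrially encoded genes, 3.98%, against 4.63% and 4.88% in the other siFUBP1 samples and 5.60% to 6.59% in siMock. The part of this difference in the results was not tested. Without siFUBP1 replicate 2, 11 members were higher and 16 lower at an adjusted p below 0.05.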

How the data were processed

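RNA from 3 siMock and 3 siFUBP1 samples labelled MG63 was sequenced by the authors, and samples were grouped by their titles. The authors deposited raw read counts per gene, with HISAT2 2.0.5, StringTie 1.3.3b, featureCounts 1.5.0-p3 and DESeq2 1.16.1 named, without roles, in the submitters' processing notes. The use of strand in counting is not given in the sources used here. FPKM values deposited by the authors divide counts by gene length and a scaled library size and served as an alternative. The authors' deposited signal columns (group means), log2 fold changes and p-values hold their own comparison and were not used. Identifiers, positions and lengths of all 58735 genes matched GENCODE 29 (GRCh38).

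The members and lists were chosen with earlier results of these data known. R 4.3.3 and edgeR 4.0.16 were used to fit the counts, with the filterByExpr filter, TMM factors, the robust quasi-likelihood F test and Benjamini-Hochberg correction across 16116 genes. TMM factors were 0.959 to 1.05 and the common dispersion 0.00684. Full statistics were set for members past an adjusted p of 0.05 and an absolute log2 fold change of 1 and for BAX, BAK1, BCL2, BCL2L1 and MCL1. Every other member was named or counted. The 16 alternatives were 3 other normalizations, 2 other count filters, DESeq2 1.42.0, limma 3.58.1 on log2(FPKM + 1) and log2(FPKM + 0.1), a replicate block, a GC and length correction, and leaving out each sample. The edgeR fit was tested on simulated data for this comparison, where it recovered 100% of 200 changed genes with 13 false calls among 16115 genes. All planted changes were beyond a log2 fold change of 1 and lay in genes above a minimum mean count. Every gene was drawn with the common dispersion, and far fewer genes changed than were called here. The simulation therefore cannot tell how well smaller changes or scarce genes are called. With a GC-dependent trend added to the simulated counts, false calls were 5009 without and 11 with the GC correction, and the main fit carries no such correction. The size of that trend was set by choice and was not taken from these data. Ratios and sums over members carry no test, and 3 samples against 3 allow no exact permutation p below 0.1 for a single value. Sequences are from RefSeq, GRCh38 and the listed siRNAs.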

Additional observations from a re-analysis of the deposited data

How the results depend on the processing

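Of 607 values of the 38 members under 16 alternatives, 566 kept their direction and side of the threshold, 18 lost the call, 14 gained it and 9 changed sign. For 24 of the 38 members every alternative that gave a value kept both, and TNFRSF10C gave none with the filter at a mean of 50 counts. The sign changes concerned members that had not passed. CASP1 (-0.004) became 0.0390 with upper-quartile factors, 0.0913 with total counts only, 0.0109 without a filter, 0.00316 with DESeq2 and -0.0683 to 0.12 with a sample left out. CASP6 (0.11) became -0.0787 with the GC and length correction and ranged from -0.0415 to 0.22 with a sample left out, and DIABLO (0.18) ranged from -0.15 to 0.41. The number of members higher past a log2 fold change of 1 (2) became 1 with limma on log2(FPKM + 1) and 1 on log2(FPKM + 0.1), and 1 to 2 with a sample left out, as BBC3 dropped below 1. It became 3 with total counts only, as CASP8 reached 1.01. The pro-survival median (0.20) became 0.30 with total counts only, a scaling that moved the median of all genes to 0.10, and ran from 0.14 to 0.24 with a sample left out. The pro-death median ran from 0.01 to 0.14, members that were higher from 11 to 15 and members that were lower from 14 to 16 with a sample left out. With total counts only the pro-death median was 0.19, and 17 members were higher and 14 lower. Members lower past 1 ran from 4, on the log2(FPKM + 1) scale, to 6.

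Deviations of same-numbered siMock and siFUBP1 samples from their group means correlated at -0.005, 0.02 and 0.12. Those of differently numbered samples correlated at -0.09 to 0.07. Deviations from the mean of so few samples depend on each other, so these values cannot decide whether the replicate numbers pair the samples. With the number as a replicate block, TNFRSF1A (-0.17, adjusted p = 0.0255, edgeR) and BIRC3 (0.19, adjusted p = 0.0307, edgeR) also passed and no member lost its call, while the number of genes called went from 9695 to 10014. TNFRSF10C, with 0 to 26 counts, is the member least certain in size: its log2 fold change ran from -5.13 to -0.69 over the alternatives. Reads shared with overlapping genes could not be separated.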

Other observations

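BIRC5, which encodes survivin, had 1016 to 1246 counts with siMock against 1925 to 1958 with siFUBP1 and rose on the log2 scale by 0.69 ± 0.080, while BIRC6, a giant inhibitor of apoptosis protein, fell by 0.92 ± 0.101, from 1577 to 2120 counts to 981 to 1148. DFFB, the nuclease that cuts DNA in apoptosis, fell by 0.78 ± 0.164. These genes were named after their values were seen.

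Of 15 tested genes of TNF receptor signalling, 7 fell and TRAF3 alone rose (53.3% in all, against 60.2% of all genes). Among those that fell were TNFRSF1B, the other TNF receptor (-0.89 ± 0.114), and the deubiquitinases OTULIN (-0.72 ± 0.076) and TNFAIP3 (-0.52 ± 0.081). In necroptosis, where RIPK1 acts with RIPK3 and MLKL, RIPK3 had 0 counts in all 6 samples and MLKL fell by 0.55 ± 0.096. PIDD1, which builds the complex that activates caspase-2, fell by 0.86 ± 0.116, while CRADD, its adaptor, rose by 0.48 ± 0.148. These genes too were named after their values were seen.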
